A study of Mus musculus and Rattus norvegicus with 12 samples.

Results

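The genes described here are the 9 isoform genes of cytochrome oxidase that come as muscle and ubiquitous forms, or as their close relatives, namely Cox6a2 and Cox6a1, Cox7a1, Cox7a2 and Cox7a2l, Cox8b and Cox8a, and Cox4i1 and Cox4i2. They were picked out of the tables by symbol, ignoring case. All 9 were found among 54087 symbols in the mouse table and 8 among 28909 symbols in the rat table. Rat Cox7a2 was not analysed here. All 9 in the mouse and all 8 in the rat passed the filter on low counts.

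RNA was sequenced from 2 systems with Jmjd4, which encodes a JmjC-domain oxygenase, as the target. The cKO hearts (n = 3) came from mice with the genotype MCM+ Jmjd4f/f, in which the Myh6 promoter drives Cre in cardiomyocytes, and the flox hearts (n = 3) came from Jmjd4f/f mice with no Cre named. Both groups were given tamoxifen, and the apex of the heart was taken 14 days later. Effects of Cre and of the knockout therefore cannot be told apart. The rat cells were ventricular cardiomyocytes of newborns (NRVCs), isolated from Sprague-Dawley rats at 1 day of age and kept for 48 h with an siRNA against Jmjd4 (siJmjd4, n = 3) or a control siRNA (siNC, n = 3). The strain, age and sex of the mice were not analysed here. The labels do not say that the NRVC libraries came from separate isolations, so p-values there measure the spread between these samples, which may be technical.

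Cytochrome oxidase, or complex IV, is the last enzyme of the mitochondrial respiratory chain: it passes electrons from cytochrome c to oxygen and pumps protons. Its catalytic core is encoded by the mitochondrial genome, and the smaller subunits around it are encoded in the nucleus. Some of these small subunits exist as a form made mainly in heart and skeletal muscle (Cox6a2, Cox7a1 and Cox8b) and a form made in most tissues (Cox6a1, Cox7a2 and Cox8a), and in rodent hearts the muscle forms gain on the ubiquitous ones as the heart matures after birth.

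Promoter sequences are shown for the Cox8 and Cox7a pairs, whose balance differed most between cKO and flox hearts and for which both promoters were at hand. Each runs 5′ to 3′ on the strand of its gene, from 250 bases before to 50 bases after the start of the gene (RefSeq, GRCm38.p6). Capitals mark matches, on either strand, to 2 of the 4 motifs searched. Cox8b lies at chr7:140900397-140900696 on the minus strand and Cox8a at chr19:7217567-7217866 on the minus strand. Cox7a1 lies at chr7:30183921-30184220 on the plus strand and Cox7a2 at chr9:79759804-79760103 on the minus strand.
Cox8b: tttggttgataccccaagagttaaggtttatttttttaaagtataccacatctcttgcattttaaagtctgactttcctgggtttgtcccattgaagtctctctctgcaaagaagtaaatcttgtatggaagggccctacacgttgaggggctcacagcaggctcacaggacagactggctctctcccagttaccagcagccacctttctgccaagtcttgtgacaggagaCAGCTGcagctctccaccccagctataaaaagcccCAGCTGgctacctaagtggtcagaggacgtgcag
Cox8a: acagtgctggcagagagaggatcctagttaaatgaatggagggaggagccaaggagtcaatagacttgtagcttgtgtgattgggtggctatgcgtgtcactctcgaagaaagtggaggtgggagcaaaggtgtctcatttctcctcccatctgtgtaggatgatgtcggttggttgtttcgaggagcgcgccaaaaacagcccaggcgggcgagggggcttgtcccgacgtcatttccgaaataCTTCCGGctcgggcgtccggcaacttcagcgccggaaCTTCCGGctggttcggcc
Cox7a1: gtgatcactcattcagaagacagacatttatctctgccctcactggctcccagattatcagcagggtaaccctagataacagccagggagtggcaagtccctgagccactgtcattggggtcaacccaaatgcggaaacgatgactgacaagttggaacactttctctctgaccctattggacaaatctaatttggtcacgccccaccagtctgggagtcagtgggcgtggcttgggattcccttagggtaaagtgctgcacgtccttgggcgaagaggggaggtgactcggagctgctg
Cox7a2: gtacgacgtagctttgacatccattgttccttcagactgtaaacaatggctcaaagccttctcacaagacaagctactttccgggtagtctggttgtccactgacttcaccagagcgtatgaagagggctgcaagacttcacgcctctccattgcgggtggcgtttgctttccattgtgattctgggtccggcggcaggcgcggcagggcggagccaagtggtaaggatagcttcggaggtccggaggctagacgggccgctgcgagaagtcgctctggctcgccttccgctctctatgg

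The muscle form Cox8b held the E-box CAGCTG at 2 places, starting at -19 and 17 from the gene start, and this motif was present in 16.3% of 32851 mouse promoters of the same length. The ubiquitous form Cox8a held CCGGAAG, a core that ETS factors such as GABP bind, at -5 and 33. On the printed strand these 2 sites read CTTCCGG, and the motif was present in 8.86% of promoters. Neither of these motifs, nor AAGGTCA (a site of estrogen-related receptors, 4.72% of promoters) nor the palindromic NRF1 site (0.971% of promoters), was found in the windows of Cox7a1, Cox7a2 or Cox7a2l. Of the 6 members with a promoter in the RefSeq table, Cox6a1 held the NRF1 site at -162 and CCGGAAG at -16. No 2 of the matches overlapped. Cox6a2, Cox4i1 and Cox4i2 had no entry. These matches describe the letters in the windows and were not tied to any binding measured here.

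The libraries held 57174654 to 82187009 counts each. Levels are given as CPM, which are counts scaled to a common library size by TMM. Flox replicate 3 stood apart, with 1485 of the 18094 tested genes at 0 against 125 to 503 in the other 5 heart libraries, and with 41.7% of its counts from mitochondrial genes against 14.2% to 24.1%. In the rat, siNC replicate 3 had 461 of 15497 tested genes at 0 against 78 to 137 in the others. Set against the other libraries of its group, the level of a gene went down with transcript length most in flox replicate 3 (Spearman's rho -0.65) and cKO replicate 2 (-0.55) in hearts, and in siNC replicate 3 (-0.47) and siJmjd4 replicate 1 (-0.35) in the rat. These values are across genes, which are not independent replicates. They cover the 78.9% of tested mouse and 82.8% of tested rat genes that had a length, and the mouse share is too low for a check, so there it is void. The rat genes were given mouse transcript lengths by symbol, so the rat values rest on another species' transcripts. The member transcripts are short, from 360 bases (Cox8b) to 1102.5 bases (Cox7a2l) in the mouse, and the part of this trend in their levels was not tested. Results are given with and without flox replicate 3 and siNC replicate 3, and some also without cKO replicate 2 and siJmjd4 replicate 1. The targeted gene Jmjd4 was at 8.95, 4.92 and 9.63 CPM in cKO replicates 1, 2 and 3, against 19.0, 8.04 and 16.9 CPM in flox replicates 1, 2 and 3, and the groups overlapped (edgeR adjusted p = 0.397). The libraries labelled siJmjd4 held 3.58, 3.43 and 3.53 CPM of Jmjd4, against 3.46, 4.40 and 0.982 CPM in those labelled siNC (edgeR adjusted p = 0.770), so its level did not check those labels. Each direction given below for NRVCs is a direction by label.

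In the hearts, the balance of all 3 muscle and ubiquitous pairs lay further towards the ubiquitous form in every cKO library than in any flox library. The ratio of Cox8b to Cox8a was 2.95 times lower in cKO hearts, that of Cox7a1 to Cox7a2 was 2.56 times lower, and that of Cox6a2 to Cox6a1 was 2.00 times lower. How often the ratio of any other pair of genes parts these groups was not tested. Among single genes, Cox7a1 and Cox8b had the most negative fold changes of the family. Both were lower without overlap, beside 11.2% of all genes, or 22.2% without flox replicate 3. With all 6 libraries no member passed the test over all genes, beside 0.508% of genes called. Without flox replicate 3 Cox7a1 passed, beside 7.19% of genes, with a level 3.03 times lower in cKO hearts.

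The Cox8 subunit is a small membrane-spanning protein of the complex. Its muscle form Cox8b was at 89.5, 190.1 and 118.9 CPM in cKO replicates 1, 2 and 3, against 245.9, 264.8 and 1749 CPM in flox replicates 1, 2 and 3. Every cKO value lay below every flox value, and flox replicate 3 was far above the rest. The log2 fold change of Cox8b was -2.50 (SE 0.88, edgeR adjusted p = 0.251) with all libraries and -0.94 (SE 0.33, edgeR adjusted p = 0.141) without flox replicate 3. The ubiquitous form Cox8a was at 103.6, 197.8 and 115.9 CPM in cKO replicates 1, 2 and 3, against 90.3, 96.2 and 600.2 CPM in flox replicates 1, 2 and 3. The groups overlapped through flox replicate 3 alone, since the other flox values lay below all cKO values. The log2 fold change of Cox8a was -0.91 (SE 0.80, edgeR adjusted p = 0.672) with all libraries, and without flox replicate 3 it had the other sign, 0.58 (SE 0.32, edgeR adjusted p = 0.340).

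Taken within each library, where scaling cancels, the Cox8b to Cox8a ratio of counts per transcript length was 1.32, 1.47 and 1.57 in cKO replicates 1, 2 and 3, against 4.16, 4.21 and 4.45 in flox replicates 1, 2 and 3. Flox replicate 3, with a Cox8b level far above the others, was close to the other flox libraries in this ratio. Cox8b thus made up 56.9% to 61.0% of the pair per length in cKO libraries, against 80.6% to 81.7% in flox libraries. The mean log2 ratio of counts was -0.08 ± 0.12 in cKO and 1.48 ± 0.05 in flox hearts (SD, n = 3 each), a difference of -1.56. An exact two-sided permutation test over the libraries gave p = 0.1, the smallest that 3 against 3 allows, and 0.175 after Benjamini-Hochberg adjustment over the 7 ratios tested. Without flox replicate 3 the difference was -1.53, the groups stayed apart, and the exact p was 0.2, the smallest that 3 against 2 allows.

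Cox7a1 and Cox7a2 are the muscle and ubiquitous forms of a subunit at the surface where monomers of the complex meet, and Cox7a2l, also called SCAF1, is a relative that joins complexes III and IV in a supercomplex. Cox7a1 was at 73.6, 166.2 and 100.9 CPM in cKO replicates 1, 2 and 3, against 327.7, 361.9 and 2438 CPM in flox replicates 1, 2 and 3. The groups did not overlap, and the highest cKO library was below the lowest flox library by a wide margin. The log2 fold change of Cox7a1 was -3.20 (SE 0.93, edgeR adjusted p = 0.176) with all libraries and -1.60 (SE 0.35, edgeR adjusted p = 0.0414) without flox replicate 3. Cox7a2 was at 113.1, 223.5 and 109.0 CPM in cKO replicates 1, 2 and 3, against 175.5, 177.6 and 1231 CPM in flox replicates 1, 2 and 3. The groups overlapped, with cKO replicate 2 above 2 of the flox libraries. The log2 fold change of Cox7a2 was -1.83 (SE 0.87, edgeR adjusted p = 0.386) with all libraries and -0.25 (SE 0.35, edgeR adjusted p = 0.741) without flox replicate 3.

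The Cox7a1 to Cox7a2 ratio of counts per length was 0.976, 1.12 and 1.39 in cKO replicates 1, 2 and 3, against 2.80, 3.06 and 2.97 in flox replicates 1, 2 and 3. Cox7a1 was thus 49.4% to 58.2% of the pair in cKO libraries and 73.7% to 75.4% in flox libraries, with no overlap. The difference of the mean log2 ratios of counts, cKO minus flox, was -1.36 (-0.39 ± 0.26 in cKO and 0.97 ± 0.06 in flox hearts, SD, n = 3 each, exact permutation p = 0.1, adjusted 0.175). It was -1.35 without flox replicate 3. Cox7a2l was at 108.2, 216.8 and 129.1 CPM in cKO replicates 1, 2 and 3, against 147.8, 155.0 and 757.7 CPM in flox replicates 1, 2 and 3. Its groups overlapped, and without flox replicate 3 its log2 fold change was 0.0014 (SE 0.32, edgeR adjusted p = 0.999).

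**Figure D1:**
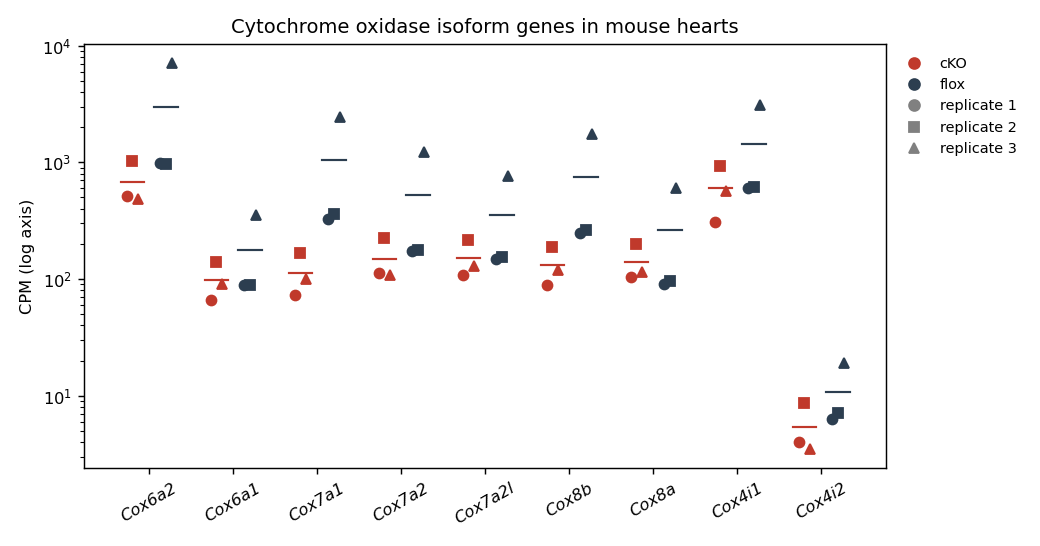
Level of each isoform gene in every heart library, in CPM on a log axis. Circles, squares and triangles are replicates 1, 2 and 3, red is cKO, dark blue is flox and lines are group means. Flox replicate 3 is the highest point of every gene, and Cox7a1 and Cox8b are the genes whose cKO points all lie below the flox points.

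Cox6a2, the muscle form of a subunit through which adenine nucleotides regulate the enzyme, was at 510.6, 1021 and 487.4 CPM in cKO replicates 1, 2 and 3, against 991.4, 972.8 and 7067 CPM in flox replicates 1, 2 and 3. The groups overlapped because cKO replicate 2 was above the 2 lower flox libraries. Its log2 fold change was -2.16 (SE 0.91, edgeR adjusted p = 0.332) with all libraries and -0.54 (SE 0.36, edgeR adjusted p = 0.442) without flox replicate 3. Its ubiquitous partner Cox6a1 was at 65.6, 139.9 and 90.7 CPM in cKO replicates 1, 2 and 3, against 88.8, 88.9 and 355.4 CPM in flox replicates 1, 2 and 3. These groups overlapped as well, and the log2 fold change was -0.85 (SE 0.65, edgeR adjusted p = 0.620) with all libraries and 0.15 (SE 0.33, edgeR adjusted p = 0.834) without flox replicate 3.

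The Cox6a2 to Cox6a1 ratio of counts per length was 6.54, 6.13 and 4.51 in cKO replicates 1, 2 and 3, against 9.38, 9.19 and 16.7 in flox replicates 1, 2 and 3. All cKO libraries were below all flox libraries, and flox replicate 3 was the highest. Cox6a2 remained the larger part of the pair in both groups, at 81.9% to 86.7% in cKO and 90.2% to 94.4% in flox libraries. The difference of the mean log2 ratios was -0.997 (2.75 ± 0.29 in cKO and 3.75 ± 0.49 in flox hearts, SD, n = 3 each, exact permutation p = 0.1, adjusted 0.175), and without flox replicate 3 it was -0.71, a ratio 1.64 times lower.

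Cox4i1, the form of subunit 4 made in most tissues, was at 307.6, 934.0 and 571.1 CPM in cKO replicates 1, 2 and 3, against 598.1, 614.5 and 3096 CPM in flox replicates 1, 2 and 3. Cox4i2, the alternative form known from lung and from oxygen-sensing cells, was at 4.00, 8.70 and 3.51 CPM in cKO replicates 1, 2 and 3, against 6.27, 7.08 and 19.3 CPM in flox replicates 1, 2 and 3. Both overlapped between the groups. Cox4i2 was 0.633% to 1.33% of the pair per length in cKO libraries and 0.640% to 1.18% in flox libraries. The difference of their mean log2 ratios was -0.0048 (-6.79 ± 0.54 in cKO and -6.78 ± 0.48 in flox hearts, SD, n = 3 each, exact permutation p = 1), so this pair gave no difference larger than the spread between libraries.

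**Figure D2:**
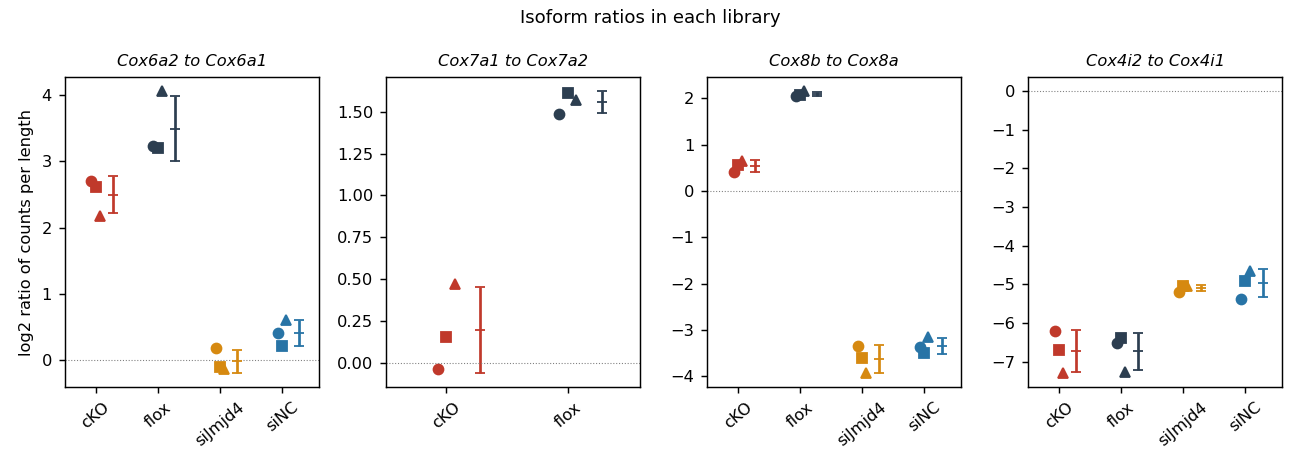
Log2 ratio of counts per length of each isoform pair in every library, with the muscle form first in the left 3 panels and Cox4i2 first in the right one. Circles, squares and triangles are replicates 1, 2 and 3, the bars at the side are mean ± SD and the dotted line marks equal levels. The cKO points lie below the flox points in the 3 muscle pairs and overlap them for Cox4i2 to Cox4i1.

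Counted over the family, 0 of 9 members passed the edgeR test with all 6 heart libraries, beside 0.508% of all tested genes, and 3 had an unadjusted p under 0.05 (Cox6a2, Cox7a1 and Cox8b), beside 2715 of 18094 genes. All 9 had a negative fold change with all libraries, beside 9046 of 18094 tested genes, with a median log2 fold change of -1.25 beside 0.00034 over all genes tested. With libraries scaled to total counts alone, where the median of all genes was 0.54, Cox6a1 (0.090) and Cox8a (0.16) were above 0 and the other 7 below. In 2 of 9, Cox7a1 and Cox8b, the groups did not overlap, beside 11.2% of genes lower without overlap. DESeq2's Wald test called 2 of 9, Cox7a1 (log2 fold change -3.31, adjusted p = 0.00209) and Cox8b (-2.61, adjusted p = 0.0221), beside 9.66% of all genes. An offset fitted to how counts varied with transcript length also called these 2 (-2.36, edgeR adjusted p = 0.0187, and -1.65, edgeR adjusted p = 0.0448), beside 8.25% of genes, but only 78.9% of tested heart genes had a length, too few for this check, which is void.

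Without flox replicate 3, edgeR called 1 of 9, Cox7a1, beside 7.19% of genes, and 6 of 9 fold changes were negative, beside 9307 of 19094 tested genes. Cox7a1 and Cox8b were lower without overlap, beside 22.2% of genes, and Cox8a was higher without overlap, beside 23.2%. The median of the 9 was then -0.25. When cKO replicate 2 was left out too, 5 of 9 fell by the edgeR test, beside 9.53% of genes called lower: Cox7a1 (log2 fold change -1.99, adjusted p = 0.00301), Cox8b (-1.30), Cox6a2 (-0.99), Cox4i2 (-0.84) and Cox7a2 (-0.68). That set leaves 2 against 2 libraries.

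**Figure D3:**
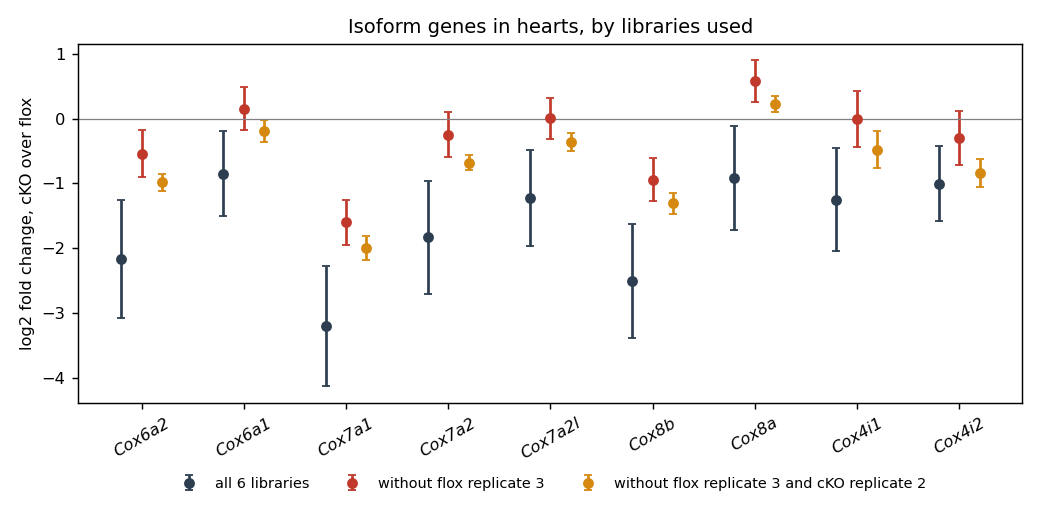
Log2 fold change of each isoform gene, cKO over flox, with bars of 1 standard error, from all 6 heart libraries, without flox replicate 3, and without flox replicate 3 and cKO replicate 2. Cox7a1 lies lowest in each set, followed by Cox8b, and 6 genes lie below 0 in all 3 sets. Cox6a1, Cox7a2l and Cox8a lie above 0 when flox replicate 3 alone is left out, Cox7a2l only just.

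Cox6a2 had the highest level per kilobase in 5 of the 6 heart libraries, and in cKO replicate 3 Cox4i1 was above it. Cox4i2 was the lowest in all 6. Cox7a1 was above Cox7a2 in all 3 flox libraries and in cKO replicates 2 and 3, and below it in cKO replicate 1. Cox8b was above Cox8a in all 6 libraries. In all, the 9 genes took 0.181%, 0.352% and 0.233% of counts in cKO replicates 1, 2 and 3, against 0.282%, 0.291% and 0.764% in flox replicates 1, 2 and 3, and these shares overlapped.

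The members were next set against 7 other nuclear subunits of the same complex that have no muscle form in this family (Cox5a, Cox5b, Cox6b1, Cox6c, Cox7b, Cox7c and Ndufa4), by taking log2 CPM of the member minus the mean log2 CPM of the 7 in each library. On this relative scale Cox7a1 was at -1.58, -1.34 and -1.03 in cKO replicates 1, 2 and 3, against -0.15, -0.09 and 0.20 in flox replicates 1, 2 and 3. Cox8b was at -1.30, -1.15 and -0.80 in cKO replicates 1, 2 and 3, against -0.56, -0.54 and -0.28 in flox replicates 1, 2 and 3. Cox8a was at -1.09, -1.09 and -0.83 in cKO replicates 1, 2 and 3, against -2.01, -2.01 and -1.82 in flox replicates 1, 2 and 3. None of these 3 genes overlapped between the groups, the muscle forms being lower and Cox8a higher in cKO hearts relative to these 7 subunits. The 7 subunits themselves had a median log2 fold change of -1.90 with all libraries. On this scale 0.785% of all genes were lower and 33.5% higher without overlap, so the direction of Cox8a was a common one.

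The relative differences, cKO minus flox, were -1.30 for Cox7a1, -0.62 for Cox8b, -0.26 for Cox6a2, 0.05 for Cox7a2, 0.48 for Cox7a2l, 0.74 for Cox6a1 and 0.94 for Cox8a on the log2 scale. The 3 muscle forms were lower without overlap, beside 0.785% of all genes on this scale. Cox7a2l, Cox6a1 and Cox8a, 3 of 9, were higher without overlap, a share near the 33.5% over all genes. Each of these 6 had an exact permutation p of 0.1, the smallest possible, or 0.213 adjusted over the 17 such values of both systems. Without flox replicate 3 these 6 kept their sign and did not overlap, at -1.20 for Cox7a1, -0.53 for Cox8b, -0.15 for Cox6a2, 0.42 for Cox7a2l, 0.57 for Cox6a1 and 1.00 for Cox8a. The shares over all genes were then 5.79% lower and 33.6% higher without overlap. Cox7a2 overlapped with all libraries but not without flox replicate 3, at 0.15. Cox4i1 and Cox4i2 overlapped either way, both at 0.39 with all libraries.

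**Figure D4:**
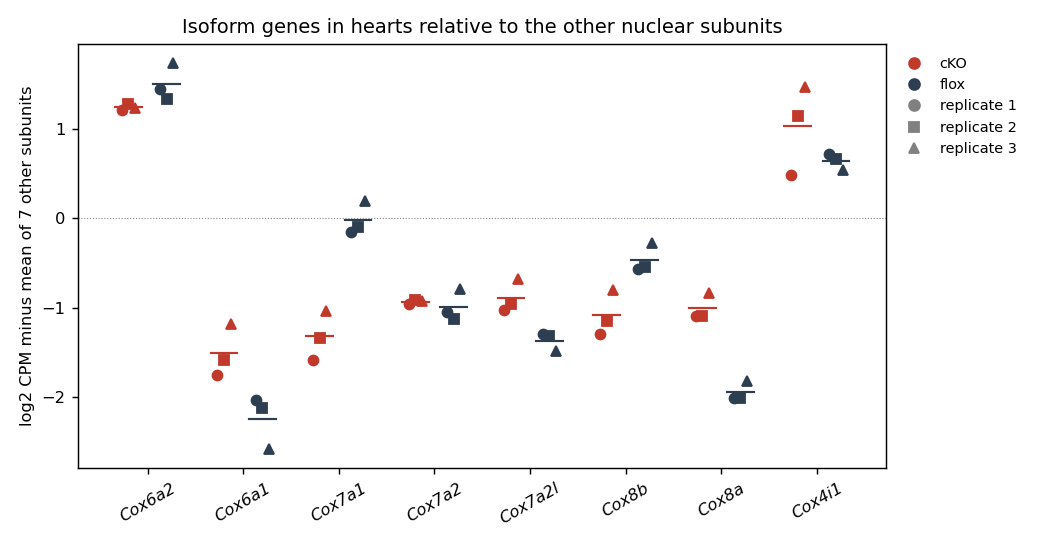
Log2 CPM of 8 isoform genes minus the mean log2 CPM of the 7 other nuclear subunits, in every heart library. Circles, squares and triangles are replicates 1, 2 and 3, red is cKO, dark blue is flox, lines are group means and Cox4i2, far lower, is left out. Cox7a1 and Cox8b lie lower and Cox6a1, Cox7a2l and Cox8a higher in the cKO libraries, and flox replicate 3 is the outermost flox point of every gene shown.

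Of the rest of complex IV in hearts, 39 of 40 further genes had a negative fold change with all libraries, beside 9046 of 18094 tested genes. Without flox replicate 3 this count was 32 of 40, beside 9307 of 19094, and with total counts alone it was also 32 of 40. With all libraries 0 passed the edgeR test, while 8 of 40 had an unadjusted p under 0.05 (2715 of 18094 over all genes). DESeq2's Wald test called 5 of 40 (9.66% over all genes). The median log2 fold change was -1.90 for the 7 other nuclear subunits, -1.97 for the 3 subunits of the mitochondrial genome (mt-Co1, mt-Co2 and mt-Co3) and -1.20 for 28 tested assembly factors. Without flox replicate 3 these medians were -0.47, -0.57 and -0.23, and 5 of 28 assembly factors fell by the edgeR test, beside 2.93% of all genes called lower. They were Taco1 (log2 fold change -1.12, adjusted p = 0.0163), an activator of the translation of mt-Co1; Lrpprc (-1.03, adjusted p = 0.0315), which stabilises mitochondrial mRNAs; Coa7 (-0.94, adjusted p = 0.0304), an assembly factor; Cox10 (-0.87, adjusted p = 0.0414), which makes the precursor of heme A; and Tmem177 (-0.87, adjusted p = 0.0495), which acts on the assembly of subunit 2. None of the 7 nuclear or 3 mitochondrial subunits passed there, with adjusted p of 0.268 or more. Lrpprc had the same sign but overlapped with all libraries, at -0.66 (adjusted p = 0.607).

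In these bulk samples, fewer cells of a type and less RNA per cell cannot be told apart. The labels give cardiomyocytes as the cell type of the apex tissue, and all 11 cardiomyocyte markers were detected. Their summed level was 38970 to 42230 CPM in cKO hearts and 56000 to 91940 CPM in flox hearts, and 10 of 11 had a negative fold change (median log2 -1.17). Summed fibroblast markers were at 4434 to 8085 CPM in cKO hearts and 1565 to 2605 CPM in flox hearts, with 8 of 10 fold changes positive (median 1.29). Summed macrophage markers were at 704.8 to 1005 CPM in cKO hearts and 351.7 to 712.2 CPM in flox hearts, with 7 of 8 positive (median 0.93). The highest flox sum without flox replicate 3 was 57380 CPM for cardiomyocyte markers and 366.1 CPM for macrophage markers. For fibroblast markers it stayed at 2605 CPM. Without flox replicate 3, 2 of 11 cardiomyocyte markers fell by the edgeR test (Pln, log2 fold change -2.13, adjusted p = 0.0108, and Mb, -1.41, adjusted p = 0.0228) and 1 rose (Myh7, 3.48, adjusted p = 0.0124). There 3 of 10 fibroblast markers (Lum, Postn and Tcf21) and 5 of 8 macrophage markers (Adgre1, C1qa, Cd14, Cd68 and Lyz2) rose as well. Over all 19094 genes tested without flox replicate 3, 813 were called higher and 560 lower.

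No marker of these 3 lists was at 0 in all libraries. Summed pericyte and smooth muscle markers were at 1010 to 1227 CPM in cKO hearts and 1048 to 1818 CPM in flox hearts, and summed endothelial markers at 940.0 to 1066 CPM in cKO hearts and 493.4 to 1277 CPM in flox hearts. The part of these shifts in the isoform ratios was not tested. Cox7a1 and Cox8b are also made in brown fat. Of its 9 markers, Plin1 was at 0 in all heart libraries and Ucp1, Elovl3 and Adipoq had at most 4, 4 and 11 counts. The others were detected. Fabp4 was at 322.2 to 1415 CPM, Cidea at 19.6 to 91.5 CPM and Dio2 at 1.02 to 46.7 CPM. Ppara was at 2.26 to 35.7 CPM and Prdm16 at 4.49 to 27.1 CPM. The summed brown adipocyte list, which holds genes other cells make as well, such as Fabp4, was at 414.3 to 681.1 CPM in cKO hearts and 523.1 to 1525 CPM in flox hearts. Without flox replicate 3 the highest flox sum of this list was 535.8 CPM, inside the range of the cKO hearts. Of its 5 tested genes, Dio2, a deiodinase, rose in cKO hearts (log2 fold change 4.56, edgeR adjusted p = 0.0255), beside 0.508% of all tested genes called. The rest did not pass.

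In the NRVCs, the muscle forms of the Cox7a and Cox8 subunits were a small part of their pairs or near the limit of detection, and the ratio of Cox6a2 to Cox6a1 was 1.34 times lower in the libraries labelled siJmjd4. No member passed the test over all genes, beside 0.00645% of genes called. Cox6a2, Cox4i1 and Cox7a2l were the members lower without overlap, beside 17.8% of all genes, or 19.9% without siNC replicate 3.

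Cox6a2 was at 475.9, 365.2 and 332.0 CPM in siJmjd4 replicates 1, 2 and 3, against 548.0, 545.6 and 1505 CPM in siNC replicates 1, 2 and 3. Every siJmjd4 value was below every siNC value, and siNC replicate 3 was far above the others. The log2 fold change was -1.15 (SE 0.44, edgeR adjusted p = 0.379) with all libraries and -0.48 (SE 0.15, edgeR adjusted p = 0.134) without siNC replicate 3. Cox6a1 was at 351.8, 331.5 and 305.5 CPM in siJmjd4 replicates 1, 2 and 3, against 347.2, 396.8 and 833.5 CPM in siNC replicates 1, 2 and 3, and the groups overlapped. Its log2 fold change was -0.67 (SE 0.35, edgeR adjusted p = 0.379) with all libraries and -0.17 (SE 0.08, edgeR adjusted p = 0.256) without siNC replicate 3.

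The Cox6a2 to Cox6a1 ratio of counts per length was 1.14, 0.925 and 0.913 in siJmjd4 replicates 1, 2 and 3, against 1.33, 1.16 and 1.52 in siNC replicates 1, 2 and 3. The groups lay side by side without overlap, with siJmjd4 replicate 1 close to siNC replicate 2. The difference of the mean log2 ratios of counts was -0.43 (0.23 ± 0.18 in siJmjd4 and 0.66 ± 0.20 in siNC NRVCs, SD, n = 3 each, exact permutation p = 0.1, adjusted 0.175), and -0.33 without siNC replicate 3, where the groups still did not overlap.

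Cox8b was at 22.2, 16.3 and 11.7 CPM in siJmjd4 replicates 1, 2 and 3, against 19.6, 21.8 and 47.1 CPM in siNC replicates 1, 2 and 3, and the groups overlapped. Cox8a was at 344.5, 306.3 and 272.8 CPM in siJmjd4 replicates 1, 2 and 3, against 310.6, 377.4 and 639.8 CPM in siNC replicates 1, 2 and 3, also with overlap. Cox8b was 6.15% to 8.96% of the pair per length in siJmjd4 and 8.11% to 10.1% in siNC libraries. The difference of their mean log2 ratios was -0.29 (-4.24 ± 0.29 in siJmjd4 and -3.95 ± 0.18 in siNC NRVCs, SD, n = 3 each, exact permutation p = 0.3, adjusted 0.42), within the spread of the libraries. Flox hearts, for comparison, had a geometric mean Cox8b to Cox8a ratio per length of 4.27, against 0.0986 in siNC NRVCs. Species, stage and culture all differ between these groups, and mouse transcript lengths were used for the rat, so the 2 values are set side by side and not tested.

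**Figure D5:**
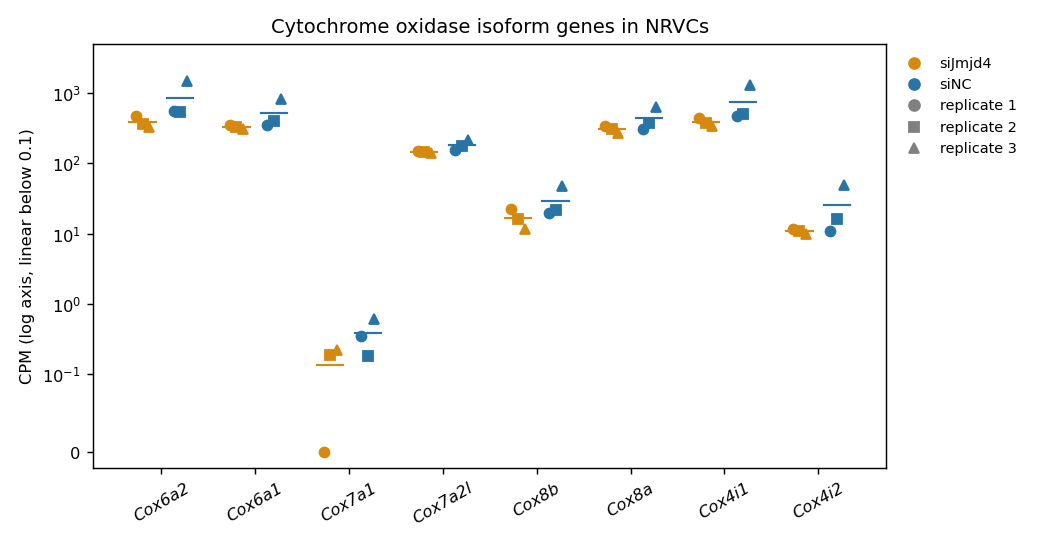
Level of each isoform gene in every NRVC library, in CPM on a log axis that is linear below 0.1. Circles, squares and triangles are replicates 1, 2 and 3, orange is siJmjd4, blue is siNC and lines are group means. Cox7a1 lies under 1 CPM in every library, and siNC replicate 3 is the highest point of every gene.

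Cox7a1 had 0, 12 and 16 counts in siJmjd4 replicates 1, 2 and 3, against 21, 12 and 33 counts in siNC replicates 1, 2 and 3. The count of 0 allows up to 0.0347 CPM in that library (3 counts, counting error only). The groups overlapped, since siNC replicate 2 lay below siJmjd4 replicates 2 and 3 in CPM. Cox7a2l was at 150.9, 144.4 and 140.5 CPM in siJmjd4 replicates 1, 2 and 3, against 155.8, 174.6 and 212.8 CPM in siNC replicates 1, 2 and 3. Its groups did not overlap, though siJmjd4 replicate 1 and siNC replicate 1 were close. The log2 fold change of Cox7a2l was -0.32 (SE 0.16, edgeR adjusted p = 0.379) with all libraries and -0.18 (SE 0.07, edgeR adjusted p = 0.181) without siNC replicate 3.

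Cox4i1 was at 438.8, 379.7 and 342.1 CPM in siJmjd4 replicates 1, 2 and 3, against 468.8, 505.3 and 1296 CPM in siNC replicates 1, 2 and 3, without overlap. Its log2 fold change was -0.97 (SE 0.42, edgeR adjusted p = 0.379) with all libraries and -0.33 (SE 0.10, edgeR adjusted p = 0.112) without siNC replicate 3. Cox4i2 was at 11.6, 11.0 and 10.0 CPM in siJmjd4 replicates 1, 2 and 3, against 11.0, 16.3 and 49.7 CPM in siNC replicates 1, 2 and 3, with overlap. The Cox4i2 to Cox4i1 ratio gave a difference of -0.12 in mean log2 (-5.14 ± 0.08 in siJmjd4 and -5.03 ± 0.36 in siNC NRVCs, SD, n = 3 each, exact permutation p = 0.7, adjusted 0.817).

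Over the family in NRVCs, 0 of 8 members passed the edgeR test, beside 0.00645% of tested genes, with 1 (Cox6a2) at an unadjusted p under 0.05, beside 8.71%, and 0 called by DESeq2's Wald test, beside 1.08%. All 8 fold changes were negative, beside 7700 of 15497 genes, and 3 of 8 were lower without overlap, beside 17.8%. Without siNC replicate 3, 0 of 8 passed, beside 0.570%, with 3 at an unadjusted p under 0.05, beside 23.9%. The same 3 members were lower without overlap, beside 19.9% of genes. When siJmjd4 replicate 1 was left out too, leaving 2 against 2, 3 of 8 fell, beside 5.18% of genes called lower: Cox6a2 (log2 fold change -0.67, adjusted p = 0.000918), Cox4i1 (-0.45, adjusted p = 0.00523) and Cox8b (-0.58, adjusted p = 0.0479).

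Relative to the 7 other nuclear subunits, Cox6a2 was at 1.24, 1.03 and 1.08 in siJmjd4 replicates 1, 2 and 3, against 1.46, 1.299 and 2.04 in siNC replicates 1, 2 and 3 (log2 scale). It was lower without overlap, by a difference of -0.48, or -0.26 without siNC replicate 3. Cox4i1 was also lower without overlap (-0.30, or -0.10 without siNC replicate 3), each with an exact permutation p of 0.1 and 0.213 adjusted. On this scale 1.52% of all genes were lower and 34.7% higher without overlap, and 2.66% and 36.5% without siNC replicate 3. The 6 other members overlapped with all libraries, and without siNC replicate 3 Cox8a did not, at 0.08. Of 37 further complex IV genes tested in NRVCs, 32 had a negative fold change, beside 7700 of 15497 tested genes. This count was 30 without siNC replicate 3 and 24 with the length offset. With all libraries 0 passed edgeR or DESeq2's Wald test, with 3 at an unadjusted edgeR p under 0.05, beside 8.71% of all genes. Median log2 fold changes were -0.51 for the nuclear subunits, -0.33 for the mitochondrial ones and -0.32 for 25 assembly factors, and without siNC replicate 3 they were -0.26, -0.17 and -0.13.

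The NRVC libraries, labelled cardiomyocytes, held both cardiomyocyte and fibroblast markers. Summed cardiomyocyte markers were at 15060 to 18320 CPM in siJmjd4 and 18770 to 26920 CPM in siNC libraries, with 9 of 10 fold changes negative (median log2 -0.58). Summed fibroblast markers were at 43150 to 49770 CPM in siJmjd4 and 36560 to 44450 CPM in siNC libraries, with 8 of 10 positive (median 0.14). Without siNC replicate 3 the medians were -0.30 and 0.053, and that library also gave the highest siNC sum of cardiomyocyte markers. No marker of either list was at 0 in all libraries. Their part in the Cox6a2 result was not tested.

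Among all tested heart genes, those whose log2 CPM over the 6 libraries was most like the mean of Cox6a2, Cox7a1 and Cox8b were Phb, Ndufs8, Kbtbd3, Mrpl42 and Atp5g1, with Pearson's r of 0.998 to 0.999 over 6 libraries. Phb encodes prohibitin of the inner mitochondrial membrane, Ndufs8 a subunit of complex I, Mrpl42 a protein of the mitochondrial ribosome and Atp5g1 a subunit of ATP synthase. The libraries share 1 outlying member, flox replicate 3, and without it the r of these genes was 0.990 to 0.996. In NRVCs the nearest genes were Slc35a2, Mterf4, Ckmt1, Rps2 and Cxcl17 (r of 0.994 to 0.998 over 6 libraries), where the mean rests in large part on the near-zero Cox7a1. In both systems the genes were picked by this same r among all tested genes, so a high r came with the choice. The r without flox replicate 3 reuses libraries that made the choice. The r of a typical gene was not set beside them, and shared regulation was not tested.

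In the mouse annotation (GENCODE M21, GRCm38), Cox6a2 lies at chr7:128205435-128206387 on the minus strand and overlaps Itgad on the plus strand, and Cox4i1 lies at chr8:120668222-120674207 on the plus strand and overlaps Emc8 and Gm20388. No source used here gives the strand setting of the libraries, so reads of overlapping genes could be shared. Over the 6 heart libraries the counts of Emc8 came to 2.44% of those of Cox4i1. Cox7a2l has a near copy, Gm6969, which was not used here, and its level is uncertain to that extent. Cox7a1, Cox7a2, Cox8a, Cox8b, Cox6a1 and Cox4i2 overlap no annotated gene.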

How the data were processed

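RNA of 12 samples in 4 groups of 3 was sequenced. The submitters' processing notes list HISAT2 2.1.0, StringTie 1.3.4, edgeR 3.20.9 and the builds mm10 and rn6, without saying what each did. The tables the authors deposited, 1 for each species, hold raw counts by gene symbol. No source used here gives the strand setting, annotation or counting rules.

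Groups came from the labels. The members and gene lists were chosen with earlier results of these data known. All 9 members are named; further complex IV genes are named where called, and the 5 genes most like the muscle forms by Pearson's r. Hearts and NRVCs were fitted apart, 6 libraries each, by group: edgeR 4.0.16 (R 4.3.3), filterByExpr, TMM, robust quasi-likelihood test, two-sided, Benjamini-Hochberg adjusted over 18094 mouse and 15497 rat genes, called under 0.05. Isoform ratios used log2 of counts plus 0.5 and exact permutation tests. Lengths are median transcript lengths in GENCODE M21 (GRCm38), used for the rat by symbol. Floors from a count of 0 cover counting error only.

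Alternatives were DESeq2 1.42.0 (size factors, Wald test), total counts, no filter, at least 5 CPM, a replicate block, a length-trend offset (loess span 0.3) and leaving out libraries. Leaving out the mitochondrial genes and the comparison with 7 other subunits were added after seeing the data. No 2 replicates of a group differed by counting error alone: the lowest chi-square per degree of freedom between their counts was 22.3. This value cannot show that the libraries are independent samples, but each was treated as a sample. The code was tested on simulated data.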

Additional observations from a re-analysis of the deposited data

How the results depend on the processing

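The log2 ratios of the muscle pairs kept their direction with each library left out and without both libraries that follow transcript length most, with leave-one-out ranges in hearts of -1.15 to -0.71 (Cox6a2 to Cox6a1), -1.50 to -1.24 (Cox7a1 to Cox7a2) and -1.62 to -1.49 (Cox8b to Cox8a). In NRVCs they were -0.53 to -0.33 (Cox6a2 to Cox6a1) and -0.43 to -0.14 (Cox8b to Cox8a). A pseudocount of 1 could hardly move such counts. With 3 libraries a group, no exact test could pass 0.05.

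Counts of genes called moved widely, and the cause was not tested. Over all heart genes 92 were called with all libraries, 20 with total counts alone (a scaling that moved the median of all genes to 0.54), 1748 by DESeq2's Wald test, 146 with no filter, 1179 with the length-trend offset, 3585 without flox replicate 3 and cKO replicate 2, and 0 to 1373 with each library left out. Against 0 members called, the Wald test called 2, the length offset 2, the fit without both libraries 5 and the fits with each library left out 0 to 1. For the 40 further complex IV genes, 0 with all libraries, these counts were 5, 5, 23 and 0 to 5. Over all genes the Wald test called 9.66%, the length offset 8.25% and the fit without both libraries 3585 of 18804. Without flox replicate 3 alone, 7.19% of all genes were called. Only 78.9% of tested heart genes had a length, too few, so the length correction is void there as a check.

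Signs turned in hearts for Cox6a1 (0.090) and Cox8a (0.16) with total counts alone. With each library left out, the log2 fold change ran from -1.17 to 0.15 for Cox6a1, -1.57 to 0.0014 for Cox7a2l and -1.30 to 0.58 for Cox8a, the high ends being without flox replicate 3. Cox8a was at 0.23 without both libraries. The Cox4i2 to Cox4i1 difference was 0.0028 with the length offset, -0.30 without both libraries and -0.28 to 0.27 with each library left out.

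In NRVCs edgeR called 1 gene, against 168 by DESeq2's Wald test, 0 with the length offset and 0 to 90 with each library left out. Without siNC replicate 3 and siJmjd4 replicate 1, edgeR called 2470 of 15620 tested genes. In that fit 3 of 8 members and 7 of 37 further complex IV genes were called. With the length offset, which used mouse lengths for the rat, Cox7a2l was at 0.021 and Cox8a at 0.058. The Cox4i2 to Cox4i1 difference was 0.091 without both libraries and -0.31 to 0.04 with each library left out. Cox6a1 relative to the 7 subunits was 0.066 without siNC replicate 3.

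Correlations between the deviations of same-numbered libraries were 0.36, -0.48 and -0.33 in hearts and -0.14, -0.02 and -0.15 in NRVCs. With 3 libraries a group, these values cannot exclude a pairing by replicate number. With the replicate number as a block, 0 genes were called in hearts and 0 in NRVCs.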
